A study of Homo sapiens with 9 samples.

Results

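The genes described here are 37 members of 2 linked programmes, the glycolytic pathway and the response to low oxygen, in A375 cells, an established human melanoma line. They were chosen by name from a fixed list of symbols, with the condition that each had values above 0 in at least 1 group. All 37 were found, with 1 row each, among the 60420 gene IDs listed, and all 37 were among the 13825 IDs that could be tested. They fall into 5 roles: 15 enzymes of the glycolytic chain, 3 enzymes beside it, 4 regulators of its flux, 5 hypoxia-inducible factor (HIF) subunits and oxygen sensors, and 10 further genes known to respond to HIF.

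The study sequenced A375 RNA from its 3' ends (QuantSeq 3' mRNA-Seq, FWD kit, single-end reads) on day 7 of a knockdown that targeted SPANX genes, cancer-testis antigens found mainly in sperm and in tumours. The 9 libraries form 3 groups of 3 replicates. SPANX KD 86 and SPANX KD 87 cells carried knockdown construct 86 or 87, and EV cells were the control of both. All groups are the same line with no other treatment named, and no label says whether replicates were separate cultures, so the p-values reflect differences among libraries that may be technical repeats. Levels are normalised reads, the read numbers recovered from the deposited values and put on 1 common scale. Recovered depth ran between 11310656 and 15564093 reads per library. Fold changes are differences of log2(level + 1), given as knockdown minus EV or as construct 86 minus construct 87, with their standard error (SE). A gene was called where limma's two-sided p, adjusted by Benjamini-Hochberg over all 13825 genes, was under 0.05.

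Glycolysis splits glucose into pyruvate in the cytosol, and lactate dehydrogenase turns pyruvate into lactate when the mitochondria do not take it up. HIF is a pair of proteins, an oxygen-labile alpha subunit (HIF1A or EPAS1) and the stable partner ARNT. When oxygen is present, prolyl hydroxylases such as EGLN1 and EGLN3 mark the alpha subunit for destruction, and when oxygen is short the pair raises many glycolytic genes together with genes for acid balance, collagen modification and mitophagy. Melanoma cells are known for running glycolysis even in air, and the alpha subunits are controlled mainly as proteins, which RNA levels do not show.

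The knockdown check came first. SPANXC stood at 101.7, 35.14 and 42.21 normalised reads in SPANX KD 86 libraries, at 25.22, 17.98 and 33.6 in SPANX KD 87 libraries, and at 400, 149.8 and 510.9 in EV libraries. The highest knockdown library was thus under the lowest EV library, although SPANX genes are near-identical copies whose reads the counting may share out. Of 11 markers of melanocytes and melanoma 8 had values above 0 (MLANA, TYR and DCT were listed at 0), and of 9 markers of other cells (epithelial, leukocyte, endothelial and hepatocyte) none did. A value of 0 here can mean that the submitters' filter removed the gene.

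By the limma test, 9 of the 37 genes were higher than in EV and 7 were lower with construct 86, and 4 were higher and 0 lower with construct 87. At an unadjusted p under 0.05, 6 were higher and 2 lower with construct 87. The 16 called with construct 86 are 43.2% of the members, against 35.6% of all genes tested, with 18.0% of all genes higher and 17.6% lower. The 4 called with construct 87 are 10.8% of the members, against 10.3% of all genes, with 5.91% of all genes higher and 4.43% lower. These shares are near the background, so the number of calls says nothing about these genes as a set, and the account below is of which genes moved. KDM3A, NDRG1 and P4HA2 were the 3 members called with both constructs, all 3 higher than in EV.

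**Figure D1:**
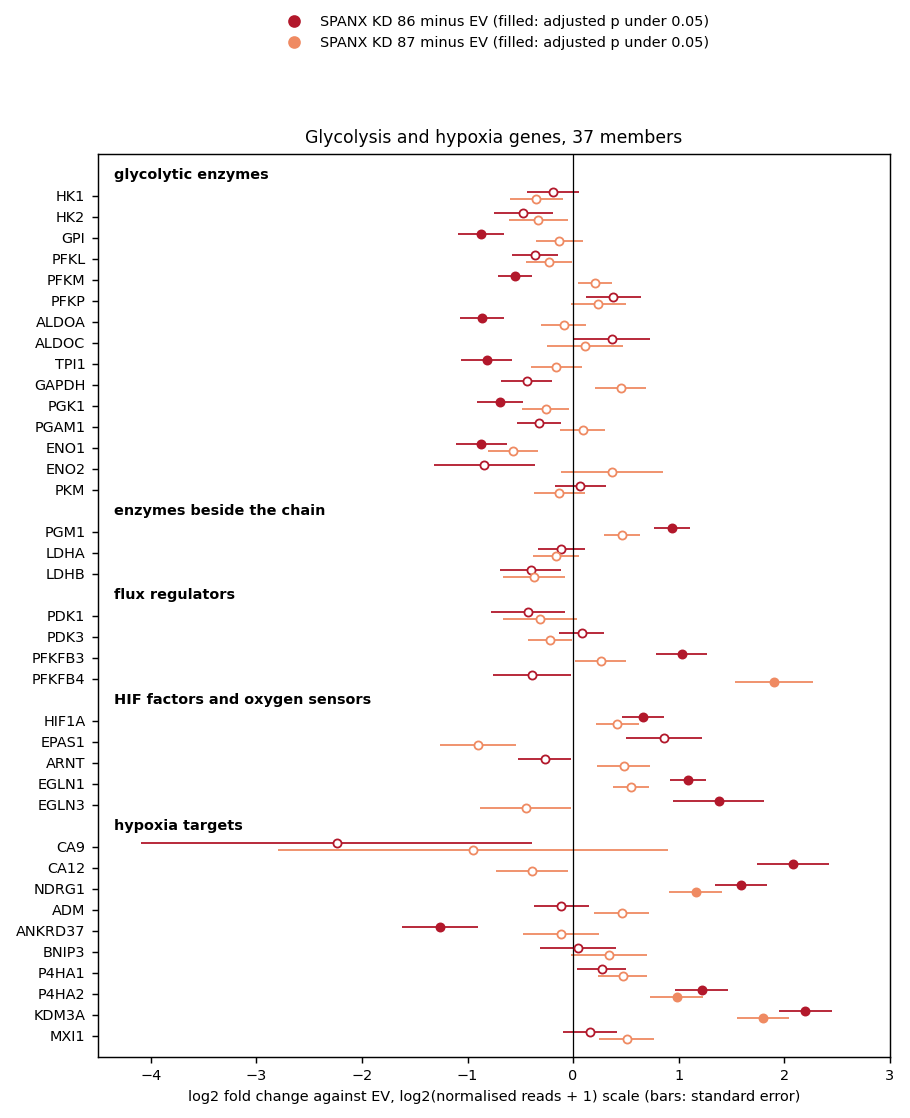
Log2 fold change against EV (x axis, on the log2(normalised reads + 1) scale) of the 37 genes (y axis, by role), for SPANX KD 86 (dark red) and SPANX KD 87 (orange), with standard errors as bars and filled circles where the adjusted p was under 0.05. KDM3A, NDRG1 and P4HA2 are filled for both constructs, and the 6 filled points among the 15 glycolytic enzymes all belong to SPANX KD 86 and lie left of 0.

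Replicate numbers marked pairs of libraries that deviated together, so a fit with the replicate number as a block was also run. It called 10 members higher and 8 lower with construct 86 (55.3% of all genes were called in that fit), and 8 higher and 0 lower with construct 87 (31.0% of all genes). Between the constructs it called 6 higher and 9 lower (44.1% of all genes). Every member called without the block was also called with it. The added calls are given with each gene.

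Of the 10 HIF-responsive genes, 4 were higher and 1 lower than in EV with construct 86, and 3 were higher and 0 lower with construct 87. Over all genes tested, 18.0% were higher and 17.6% lower with construct 86, and 5.91% higher and 4.43% lower with construct 87. The 3 calls with construct 87 fell to 1 without EV replicate 1 or SPANX KD 87 replicate 1. In these fits the share of all genes that were higher also fell, to 2.41% and 1.63%. The median log2 fold change of the 10 was 0.22 with construct 86 and 0.47 with construct 87, beside -0.04 and -0.00 over all genes tested. In bulk RNA, a change in how many cells express a gene and a change in its level per cell cannot be told apart.

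KDM3A (ENSG00000115548.16), a demethylase of histone H3 lysine 9 and a known direct HIF target, had the largest called rise among the 37 against EV with construct 86. It stood at 1150, 1604 and 1384 normalised reads in SPANX KD 86 libraries, at 1286, 1005 and 847.1 in SPANX KD 87 libraries, and at 221.1, 403.7 and 289.9 in EV libraries. Both sets of knockdown libraries lay wholly above the EV libraries and overlapped each other. For KDM3A the log2 fold change was 2.20 (SE 0.25, 4.61-fold, adjusted p = 0.000233) with construct 86 and 1.80 (SE 0.25, 3.48-fold, adjusted p = 0.00335) with construct 87. Both calls were kept when each of the 9 libraries was left out in turn, with an adjusted p of at most 0.00198 for construct 86 and 0.0227 for construct 87.

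P4HA2 (ENSG00000072682.18) encodes an alpha subunit of collagen prolyl 4-hydroxylase, which stabilises the collagen triple helix. Its level was 1178, 1510 and 2132 normalised reads in SPANX KD 86 libraries, 1159, 1144 and 1716 in SPANX KD 87 libraries, and 614.5, 658.6 and 738.3 in EV libraries. The knockdown libraries overlapped each other and none overlapped EV, and in each group replicate 3 was the highest. For P4HA2 the log2 fold change was 1.22 (SE 0.25, adjusted p = 0.00389) with construct 86 and 0.98 (SE 0.25, adjusted p = 0.032) with construct 87. The call with construct 87 was lost, with adjusted p between 0.0528 and 0.113, without any 1 of the SPANX KD 87 libraries, without EV replicate 1 or 3, or without SPANX KD 86 replicate 2. Its partner P4HA1 averaged 1022 ± 171 normalised reads in SPANX KD 86 libraries, 1180 ± 245 in SPANX KD 87 libraries and 850.4 ± 178 in EV libraries (SD, n = 3 each). P4HA1 was not called with either construct, and passed with construct 87 only when the replicate number was a block (log2 fold change 0.47, adjusted p = 0.211 without and 0.0285 with the block).

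The promoters of KDM3A and P4HA2 are shown because these members were called with both constructs, 1 of them with and 1 without the core of the HIF binding site. The core was searched as ACGTG or GCGTG on both strands, in RefSeq windows of GRCh38.p14 that run from 250 bases before to 50 bases after each gene's start, and a match is in capitals. The KDM3A window is chr2:86441121-86441420 on the plus strand, the first of 2 listed for the gene, and holds 1 match, GCGTG, that begins 26 bases before the start. The P4HA2 window is chr5:132227042-132227341 on the minus strand and holds no match.
KDM3A: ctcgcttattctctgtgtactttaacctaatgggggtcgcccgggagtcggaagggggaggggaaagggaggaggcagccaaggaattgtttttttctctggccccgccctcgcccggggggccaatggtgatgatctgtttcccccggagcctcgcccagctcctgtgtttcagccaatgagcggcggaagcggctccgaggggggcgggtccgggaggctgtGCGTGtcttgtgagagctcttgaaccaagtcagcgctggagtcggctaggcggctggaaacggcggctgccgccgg
P4HA2: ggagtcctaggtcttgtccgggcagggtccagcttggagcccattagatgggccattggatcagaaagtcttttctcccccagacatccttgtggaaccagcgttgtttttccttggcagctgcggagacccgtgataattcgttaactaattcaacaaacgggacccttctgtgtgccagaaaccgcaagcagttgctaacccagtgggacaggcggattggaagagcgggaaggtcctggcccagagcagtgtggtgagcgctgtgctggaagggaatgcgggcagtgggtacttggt
The core stood in the window of 25 of the 36 members with a RefSeq entry (69.4%), against 48.4% of the first windows of all 27305 genes listed and 63.4% of those of the 9588 tested genes with an entry. Among the members called with construct 86, it stood in 5 of 8 that were higher and 5 of 7 that were lower. A short match is a description of the letters, not a binding site, and NDRG1 had no entry.

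NDRG1 (ENSG00000104419.14) encodes a stress-responsive cytoplasmic protein that rises in hypoxia and in differentiation. It stood at 2295, 2617 and 2288 normalised reads in SPANX KD 86 libraries, 1831, 1382 and 2217 in SPANX KD 87 libraries, and 848.9, 1032 and 572.3 in EV libraries. The 3 groups did not overlap, with SPANX KD 86 highest and EV lowest. For NDRG1 the log2 fold change was 1.59 (SE 0.25, adjusted p = 0.00107) with construct 86 and 1.16 (SE 0.25, adjusted p = 0.0169) with construct 87. The direct comparison of the constructs did not pass (log2 difference 0.43, SE 0.25, adjusted p = 0.234). The call with construct 87 was lost without EV replicate 1 (adjusted p = 0.0549) or SPANX KD 87 replicate 1 (adjusted p = 0.0779).

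CA12 and CA9 encode membrane carbonic anhydrases that handle the acid made by glycolysis. CA12 (ENSG00000074410.13) stood at 95.89, 69.39 and 116.1 normalised reads in SPANX KD 86 libraries, 14.71, 11.99 and 22.4 in SPANX KD 87 libraries, and 25.56, 21.01 and 17.25 in EV libraries. All 3 SPANX KD 86 libraries lay above the other 6, while SPANX KD 87 and EV overlapped. For CA12 the log2 fold change was 2.08 (SE 0.34, 4.21-fold, adjusted p = 0.00145) with construct 86 and -0.39 (SE 0.34, adjusted p = 0.498) with construct 87, and the constructs differed by 2.46 (SE 0.34, adjusted p = 0.000785). CA9 varied widely among the libraries of each knockdown group. CA9 stood at 0.9686, 2.635 and 99.66 normalised reads in SPANX KD 86 libraries and at 1.051, 9.42 and 498.9 in SPANX KD 87 libraries. In EV libraries it stood at 37.78, 22.84 and 81.92, above both knockdowns in replicates 1 and 2. Replicate 3 was the highest in every group, the groups overlapped, and CA9 was not called (adjusted p = 0.365 with construct 86 and 0.775 with construct 87). With the replicate block CA9 came near the threshold with construct 86 (log2 fold change -2.24, SE 1.85 without the block, adjusted p = 0.053 with it). With construct 87 the blocked adjusted p was 0.443.

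ANKRD37 (ENSG00000186352.8), a small ankyrin-repeat protein and a known HIF target, was the hypoxia target that was lower with construct 86. It stood at 75.55, 54.46 and 96.14 normalised reads in SPANX KD 86 libraries, 167.1, 121.6 and 220.9 in SPANX KD 87 libraries, and 212.2, 107.8 and 244.7 in EV libraries. The SPANX KD 86 libraries lay below all others, and the other 2 groups overlapped. For ANKRD37 the log2 fold change was -1.26 (SE 0.36, 2.4-fold lower, adjusted p = 0.0197) with construct 86 and -0.11 (SE 0.36, adjusted p = 0.877) with construct 87, and the constructs differed by -1.16 (SE 0.36, adjusted p = 0.0367). The call against EV was lost, with adjusted p between 0.072 and 0.082, without EV replicate 1 or 3 or SPANX KD 86 replicate 2.

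The remaining hypoxia targets were not called with either construct. ADM, the vasodilator peptide adrenomedullin, averaged 187.6 ± 33.2 normalised reads in SPANX KD 86, 280.3 ± 51.7 in SPANX KD 87 and 205.8 ± 55.8 in EV libraries (SD, n = 3 each). BNIP3, a mitophagy receptor, averaged 1006 ± 369 in SPANX KD 86, 1294 ± 722 in SPANX KD 87 and 938.7 ± 164 in EV libraries. MXI1, a MAX partner that opposes MYC, averaged 320.8 ± 42.7 in SPANX KD 86, 415.2 ± 99.2 in SPANX KD 87 and 292.2 ± 86.9 in EV libraries. With the replicate block MXI1 passed with construct 87 (log2 fold change 0.51, adjusted p = 0.0455, against 0.23 without the block).

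Among the 5 HIF subunits and oxygen sensors, limma called 3 higher and 0 lower with construct 86 (4 and 0 at an unadjusted p under 0.05), where 18.0% of all genes were higher. The 3 calls fell to 1, that of EGLN1, without EV replicate 3 or SPANX KD 86 replicate 1 or 2. In these fits 14.7%, 15.4% and 11.8% of all genes were higher. With construct 87 limma called 0 of the 5, against 10.3% of all genes, and at an unadjusted p under 0.05 EGLN1 was higher and EPAS1 lower. HIF1A (ENSG00000100644.16) stood at 6110, 5606 and 5681 normalised reads in SPANX KD 86 libraries, 4473, 5125 and 5125 in SPANX KD 87 libraries, and 3149, 4702 and 3299 in EV libraries. SPANX KD 86 lay above the other groups, and the other groups overlapped through EV replicate 2. For HIF1A the log2 fold change was 0.66 (SE 0.20, adjusted p = 0.0236) with construct 86 and 0.42 (SE 0.20, adjusted p = 0.195) with construct 87. The call with construct 86 did not survive removal of the trend with transcript length (log2 fold change 0.42, adjusted p = 0.0657). It was also lost, with adjusted p between 0.0581 and 0.0806, without any 1 of the SPANX KD 86 libraries or without EV replicate 1 or 3, and HIF1A passed with construct 87 without EV replicate 2 (adjusted p = 0.0386).

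EGLN1 (ENSG00000135766.8), the main oxygen-sensing prolyl hydroxylase and itself a HIF target, stood at 2310, 2300 and 2624 normalised reads in SPANX KD 86 libraries, 1604, 1552 and 1849 in SPANX KD 87 libraries, and 1111, 1265 and 1033 in EV libraries. The 3 groups did not overlap, with SPANX KD 87 between the others. For EGLN1 the log2 fold change was 1.09 (SE 0.17, adjusted p = 0.00104) with construct 86. With construct 87 it was 0.55 (SE 0.17, adjusted p = 0.0621), and with the replicate block this passed (adjusted p = 0.0161). The constructs differed by 0.53 (SE 0.17, adjusted p = 0.0399). EGLN1 has a long transcript, and with the length trend removed its difference between constructs was 0.32 and did not pass (adjusted p = 0.3). In that fit its rise with construct 86 was 0.65 and passed (adjusted p = 0.0358), and its value with construct 87 was 0.33 and did not (adjusted p = 0.342).

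EGLN3 (ENSG00000129521.13), a related hydroxylase, stood at 130.8, 66.76 and 43.38 normalised reads in SPANX KD 86 libraries, 18.92, 18.84 and 21.38 in SPANX KD 87 libraries, and 43.34, 22.84 and 20.48 in EV libraries. SPANX KD 86 lay above both other groups, by a margin of hundredths of a read between SPANX KD 86 replicate 3 and EV replicate 1. For EGLN3 the log2 fold change was 1.38 (SE 0.43, adjusted p = 0.0296) with construct 86 and -0.45 (SE 0.43, adjusted p = 0.529) with construct 87, and the constructs differed by 1.83 (SE 0.43, adjusted p = 0.011). The call against EV was lost, with adjusted p between 0.0578 and 0.104, without SPANX KD 86 replicate 1 or 2 or EV replicate 2 or 3.

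EPAS1 (ENSG00000116016.13), the HIF-2 alpha subunit, stood at 126.9, 119.5 and 207.5 normalised reads in SPANX KD 86 libraries, 32.58, 36.82 and 64.14 in SPANX KD 87 libraries, and 105.6, 86.78 and 56.05 in EV libraries. SPANX KD 86 lay above both other groups, and SPANX KD 87 overlapped EV only where its replicate 3 (64.14) exceeded EV replicate 3 (56.05). Neither construct was called against EV, with log2 fold changes of 0.86 (SE 0.36, adjusted p = 0.0806) for construct 86 and -0.90 (SE 0.36, adjusted p = 0.132) for construct 87. The replicate block moved the construct 86 value to an adjusted p of 0.0426. With the length trend removed it was 0.51 and did not pass (adjusted p = 0.328). With block and length trend removed, EPAS1 was called lower with construct 87 (log2 fold change -1.07, adjusted p = 0.0281). The direct difference between constructs was 1.76 (SE 0.36, 3.39-fold, adjusted p = 0.00506). ARNT (ENSG00000143437.20), the common HIF partner, stood at 333.2, 466.4 and 436.2 normalised reads in SPANX KD 86 libraries, 807.1, 778.4 and 522.3 in SPANX KD 87 libraries, and 485.6, 630.3 and 391.3 in EV libraries. The knockdown groups did not overlap each other, and both overlapped EV. ARNT differed between the constructs by -0.76 (SE 0.25, adjusted p = 0.0467), and this call was lost, with adjusted p between 0.0619 and 0.152, without EV replicate 1, without any 1 of the SPANX KD 86 libraries, or without SPANX KD 87 replicate 1 or 2.

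**Figure D2:**
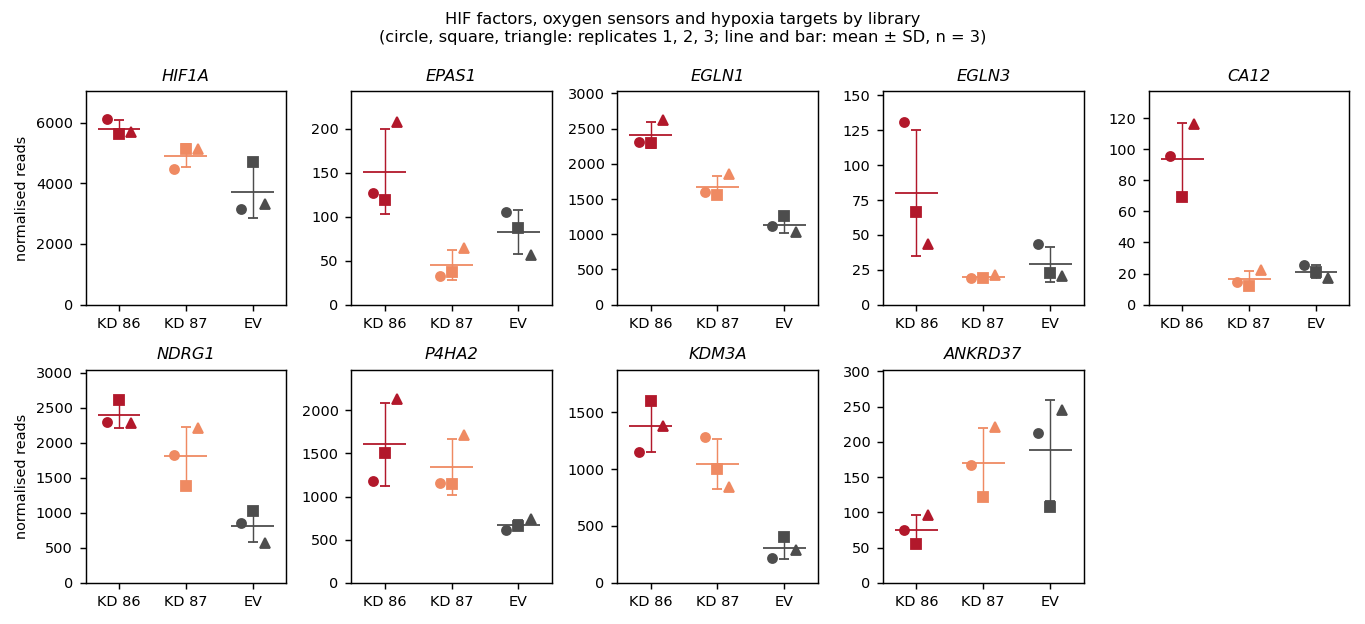
Normalised reads (y axis, from 0) of 9 HIF subunits, oxygen sensors and hypoxia targets in SPANX KD 86, SPANX KD 87 and EV libraries (x axis), with 1 marker per replicate and mean ± SD as line and bar. KDM3A, NDRG1 and P4HA2 stand above EV in both knockdowns, CA12 and EGLN3 are highest in SPANX KD 86, and ANKRD37 stands lowest in SPANX KD 86.

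Of the 15 enzymes of the glycolytic chain, limma called 6 lower and 0 higher with construct 86 (the same numbers at an unadjusted p under 0.05). With construct 87 it called 0 in either direction (10.3% of all genes were called), and also 0 with the replicate block (31.0% of all genes). ENO1 was lower with construct 87 at an unadjusted p under 0.05. With the length trend removed and the block added, ENO1 was called lower with construct 87 (log2 fold change -0.53, adjusted p = 0.0364). GAPDH was called higher in that fit (0.55, adjusted p = 0.0375). The 6 lower are 40% of the chain, against 17.6% of all genes tested. Without SPANX KD 86 replicate 2, 2 of the 15 were called lower (13.3%, against 10.3% of all genes in that fit). Without EV replicate 1 or SPANX KD 86 replicate 3 the count was 3 of the 15 (20%, against 11.5% and 14.5% of all genes). The median log2 fold change of the 15 was -0.47 with construct 86 and -0.13 with construct 87, against -0.04 and -0.00 over all genes. Summed over the 15, the level was between 158373 and 171274 normalised reads in SPANX KD 86 libraries, between 227966 and 242671 in SPANX KD 87 libraries, and between 184066 and 254757 in EV libraries. As a share of all reads on tested genes this was between 1.2% and 1.23% in SPANX KD 86, 1.76% and 1.86% in SPANX KD 87, and 1.39% and 1.9% in EV libraries. The SPANX KD 86 libraries lay below all others, and EV replicate 3 was the lowest of the rest. GAPDH, not called against EV, was the largest single part of this sum in every library. Its mean was 59736 normalised reads in SPANX KD 86, 110924 in SPANX KD 87 and 81690 in EV libraries, so the sum mostly follows a few genes.

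The 6 lower enzymes were GPI, PFKM, ALDOA, TPI1, PGK1 and ENO1. GPI (ENSG00000105220.14) converts glucose 6-phosphate to fructose 6-phosphate. It stood at 2669, 2977 and 2800 normalised reads in SPANX KD 86 libraries, 4063, 5351 and 4790 in SPANX KD 87 libraries, and 5253, 6760 and 3857 in EV libraries. No SPANX KD 86 library reached any other library, and SPANX KD 87 and EV overlapped. For GPI the log2 fold change was -0.87 (SE 0.22, 1.83-fold lower, adjusted p = 0.0125) with construct 86 and -0.13 (SE 0.22, adjusted p = 0.74) with construct 87.

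ALDOA (ENSG00000149925.17), the main muscle-type aldolase, splits the 6-carbon sugar. It stood at 12127, 12319 and 12831 normalised reads in SPANX KD 86 libraries, 18508, 22753 and 22454 in SPANX KD 87 libraries, and 25887, 24144 and 18324 in EV libraries. Again all SPANX KD 86 libraries lay below the other 6, which overlapped among themselves. For ALDOA the log2 fold change was -0.86 (SE 0.21, 1.81-fold lower, adjusted p = 0.0103) with construct 86 and -0.09 (SE 0.21, adjusted p = 0.809) with construct 87. The calls of GPI and ALDOA with construct 86 were kept without each of the 9 libraries in turn, with an adjusted p of at most 0.0401 and 0.0421.

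PFKM (ENSG00000152556.15), the muscle-type subunit of phosphofructokinase, the committed step of glycolysis, stood at 940.5, 972.4 and 1012 normalised reads in SPANX KD 86 libraries, 1565, 1760 and 1606 in SPANX KD 87 libraries, and 1381, 1597 and 1307 in EV libraries. SPANX KD 86 lay below both other groups, which overlapped. For PFKM the log2 fold change was -0.55 (SE 0.16, adjusted p = 0.0233) with construct 86 and 0.21 (SE 0.16, adjusted p = 0.44) with construct 87. The call was lost, with adjusted p between 0.0536 and 0.0778, without any 1 of the SPANX KD 86 libraries.

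TPI1, PGK1 and ENO1 act further down the chain. TPI1 (ENSG00000111669.14), which interconverts the triose phosphates, stood at 8296, 6977 and 8219 normalised reads in SPANX KD 86 libraries, 11095, 11643 and 14650 in SPANX KD 87 libraries, and 19349, 11542 and 11819 in EV libraries. PGK1 (ENSG00000102144.13), the first step that makes ATP, stood at 7648, 6073 and 7821 in SPANX KD 86 libraries, 9117, 8480 and 11556 in SPANX KD 87 libraries, and 14149, 10755 and 10036 in EV libraries. ENO1 (ENSG00000074800.13), the enolase of most tissues, stood at 24421, 23240 and 21569 in SPANX KD 86 libraries, 25195, 31256 and 29090 in SPANX KD 87 libraries, and 48360, 49637 and 31359 in EV libraries. For all 3 genes the SPANX KD 86 libraries lay below all others, and for ENO1 the SPANX KD 87 libraries also lay below EV, EV replicate 3 by a narrow margin. Log2 fold changes with construct 86 were -0.82 for TPI1 (SE 0.24, adjusted p = 0.0229), -0.69 for PGK1 (SE 0.22, adjusted p = 0.0312) and -0.87 for ENO1 (SE 0.24, adjusted p = 0.0178). Between the constructs TPI1 differed by -0.66 (SE 0.24), which passed with the replicate block (adjusted p = 0.0681 without and 0.0203 with it). With construct 87, ENO1 was at -0.57 (SE 0.24, adjusted p = 0.155, and 0.0508 with the replicate block).

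These 3 calls with construct 86 depended on single libraries. TPI1 was lost, with adjusted p between 0.0513 and 0.0902, without EV replicate 1 or SPANX KD 86 replicate 2 or 3. ENO1 was lost without the same libraries, with adjusted p between 0.0581 and 0.0622. PGK1 was lost, with adjusted p between 0.0552 and 0.131, without EV replicate 1 or any 1 of the SPANX KD 86 libraries. A fit without a library has a group of 2 and 1 fewer degree of freedom.

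GAPDH (ENSG00000111640.14), the dehydrogenase of the chain and a common reference gene, differed between the constructs. It stood at 61676, 58757 and 58775 normalised reads in SPANX KD 86 libraries, 123412, 110295 and 99064 in SPANX KD 87 libraries, and 89665, 88152 and 67254 in EV libraries. The 3 groups did not overlap, with SPANX KD 87 highest and SPANX KD 86 lowest. Neither construct was called against EV, at log2 fold changes of -0.44 (SE 0.24, adjusted p = 0.183) with construct 86 and 0.45 (SE 0.24, adjusted p = 0.265) with construct 87, but the constructs differed by -0.89 (SE 0.24, 1.85-fold, adjusted p = 0.0226). That difference was at adjusted p = 0.0595 with the length trend removed. It was also lost when genes at 0 in a whole group were added to the fit (adjusted p = 0.0896), and without any 1 of the 6 knockdown libraries (adjusted p between 0.0519 and 0.0825).

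The other 8 enzymes of the chain were not called with either construct. HK1 averaged 1963 ± 190 normalised reads in SPANX KD 86, 1760 ± 243 in SPANX KD 87 and 2326 ± 777 in EV libraries (SD, n = 3 each). HK2, the inducible hexokinase of many tumours, averaged 659.2 ± 50.1 in SPANX KD 86, 734.6 ± 136 in SPANX KD 87 and 967.5 ± 403 in EV libraries. With the length trend removed HK2 was lower with construct 86 (log2 fold change -0.85, adjusted p = 0.0101). PFKL, the liver-type phosphofructokinase, averaged 749.8 ± 175 in SPANX KD 86, 810.8 ± 129 in SPANX KD 87 and 947 ± 98.4 in EV libraries. PFKP, the platelet type, averaged 2925 ± 326 in SPANX KD 86, 2665 ± 469 in SPANX KD 87 and 2332 ± 823 in EV libraries. Its log2 fold change with construct 86 (0.38, SE 0.26, adjusted p = 0.272) was 0.64 and passed without EV replicate 2 (adjusted p = 0.0464). ALDOC, the brain-type aldolase, was at 0.37, PGAM1, the phosphoglycerate mutase, at -0.32 and PKM, the pyruvate kinase of the last step, at 0.07 with construct 86 on the log2 scale, and with construct 87 ALDOC was at 0.11, PGAM1 at 0.09 and PKM at -0.13. ENO2, the neuronal enolase, was at -0.84 with construct 86 (SE 0.48, adjusted p = 0.194), and passed with the replicate block (adjusted p = 0.0105) and without SPANX KD 86 replicate 3 (adjusted p = 0.0375). Between the constructs ENO2 differed by -1.21 (SE 0.48, adjusted p = 0.0869), and this also passed with the block (adjusted p = 0.00168) and without SPANX KD 86 replicate 3 (adjusted p = 0.0181).

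**Figure D3:**
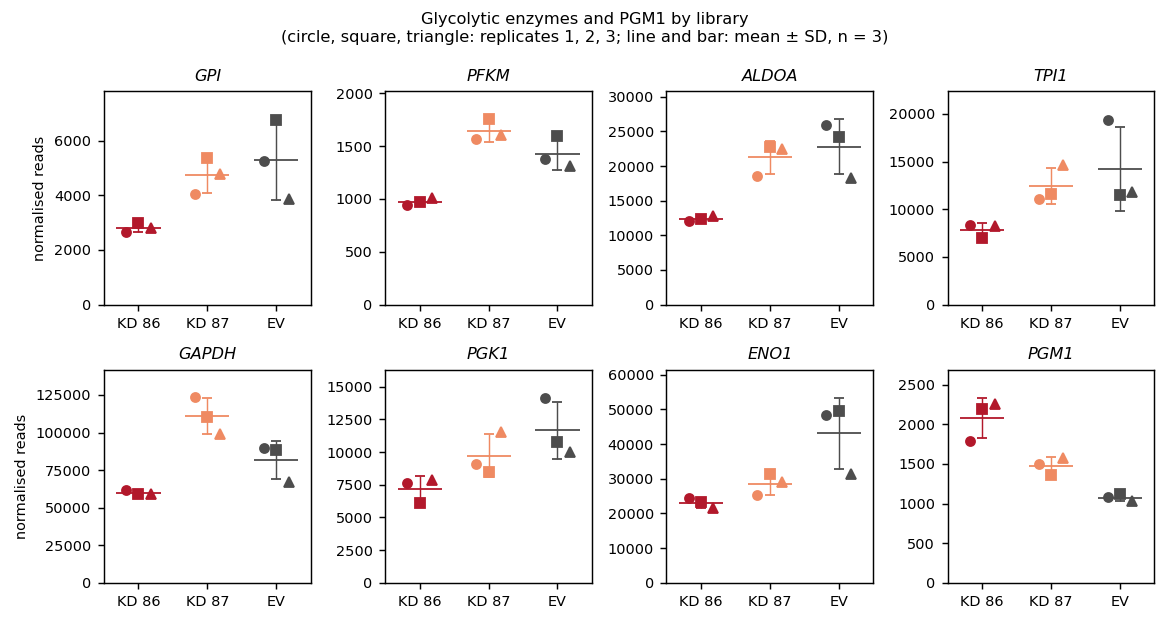
Normalised reads (y axis, from 0) of 7 glycolytic enzymes and PGM1 in SPANX KD 86, SPANX KD 87 and EV libraries (x axis), with 1 marker per replicate and mean ± SD as line and bar. The 7 are the 6 enzymes called lower with construct 86 and GAPDH, out of 15 in the chain. In these 7 the 3 SPANX KD 86 libraries are the lowest of the 9, and for PGM1 they are the highest. Of the enzymes not shown, HK1, HK2, PFKL, PFKP, PGAM1, ENO2 and PKM overlapped EV in SPANX KD 86, and ALDOC lay above it. The share of all genes with such an order was not counted.

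Of the 3 enzymes beside the chain, PGM1 was called. PGM1 (ENSG00000079739.15) interconverts glucose 1-phosphate and glucose 6-phosphate and so links glycogen to glycolysis. It stood at 1787, 2200 and 2256 normalised reads in SPANX KD 86 libraries, 1496, 1359 and 1580 in SPANX KD 87 libraries, and 1079, 1119 and 1029 in EV libraries. The 3 groups did not overlap, with EV lowest. For PGM1 the log2 fold change was 0.94 (SE 0.17, adjusted p = 0.00207) with construct 86, kept without each library in turn (adjusted p at most 0.0136). With construct 87 it was 0.46 (SE 0.17, adjusted p = 0.108, and 0.0335 with the replicate block). The difference between constructs was 0.49 (adjusted p = 0.0549, and 0.0177 with the block). LDHA, the muscle-type lactate dehydrogenase chain, averaged 13304 ± 1969 in SPANX KD 86, 12795 ± 1442 in SPANX KD 87 and 14454 ± 2987 in EV libraries (SD, n = 3 each), and LDHB, the heart-type chain, averaged 16121 ± 3687 in SPANX KD 86, 16383 ± 2547 in SPANX KD 87 and 21920 ± 8176 in EV libraries. Neither was called with either construct (adjusted p between 0.298 and 0.724).

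Among the 4 flux regulators, PFKFB3 was higher with construct 86 and PFKFB4 with construct 87. Both encode bifunctional enzymes that set fructose 2,6-bisphosphate, the activator of phosphofructokinase, and both are known HIF targets. PFKFB3 (ENSG00000170525.19) stood at 1250, 1423 and 1072 normalised reads in SPANX KD 86 libraries, 751.4, 826.4 and 613.9 in SPANX KD 87 libraries, and 538.9, 860.5 and 480.7 in EV libraries. SPANX KD 86 lay above the other 2 groups, which overlapped. For PFKFB3 the log2 fold change was 1.03 (SE 0.24, 2.04-fold, adjusted p = 0.00829) with construct 86 and 0.26 (SE 0.24, adjusted p = 0.524) with construct 87. The call with construct 86 was kept without each library in turn (adjusted p at most 0.0402).

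PFKFB4 (ENSG00000114268.11) stood at 351.6, 832.7 and 1202 normalised reads in SPANX KD 86 libraries, 2954, 3747 and 3810 in SPANX KD 87 libraries, and 796.7, 982 and 1024 in EV libraries. The 3 SPANX KD 87 libraries lay far above the other 6, and SPANX KD 86 overlapped EV on both sides. For PFKFB4 the log2 fold change was -0.39 (SE 0.37, adjusted p = 0.424) with construct 86 and 1.90 (SE 0.37, 3.74-fold, adjusted p = 0.0108) with construct 87. The constructs differed by -2.30 (SE 0.37, 4.92-fold, adjusted p = 0.00156). The call with construct 87 was lost without EV replicate 1 (log2 fold change 1.79, adjusted p = 0.0561). PDK1 and PDK3, kinases that switch off pyruvate dehydrogenase, were not called: PDK1 averaged 222.1 ± 75.6 in SPANX KD 86, 250.2 ± 125 in SPANX KD 87 and 292.1 ± 59.3 in EV libraries, and PDK3 averaged 126.8 ± 11.3 in SPANX KD 86, 102.3 ± 3.98 in SPANX KD 87 and 119.9 ± 13.7 in EV libraries.

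The direct comparison of the constructs called 12 of the 37 members (32.4%), against 25.6% of all genes. Construct 86 was higher for 5 (PFKFB3, EPAS1, EGLN1, EGLN3 and CA12), beside 12.9% of all genes. It was lower for 7 (GPI, PFKM, ALDOA, GAPDH, PFKFB4, ARNT and ANKRD37), beside 12.7% of all genes. With the libraries scaled by their totals alone, 3 were higher and 8 lower. GPI differed by -0.74 (SE 0.22, adjusted p = 0.0329), PFKM by -0.75 (SE 0.16, adjusted p = 0.00694), ALDOA by -0.77 (SE 0.21, adjusted p = 0.0223) and PFKFB3 by 0.77 (SE 0.24, adjusted p = 0.038). The calls of PFKM, PFKFB4, EPAS1, EGLN3 and CA12 were kept without each of the 9 libraries in turn, and the other 7 were lost without certain single libraries. GPI and ALDOA lost theirs without any 1 of the SPANX KD 86 libraries or without SPANX KD 87 replicate 2 or 3 (adjusted p between 0.0589 and 0.117). EGLN1 and GAPDH lost theirs without any 1 of the 6 knockdown libraries (adjusted p between 0.0519 and 0.138). PFKFB3 lost its call without SPANX KD 86 replicate 1 or 2 or any 1 of the SPANX KD 87 libraries (adjusted p between 0.0605 and 0.136). ANKRD37 lost its call without SPANX KD 86 replicate 1 or 2 or SPANX KD 87 replicate 1 or 3 (adjusted p between 0.0818 and 0.136). Against EV both constructs share the same 3 control libraries, so the 2 sets of fold changes are not independent.

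Counts of 3'-end reads allow the share of an isozyme within its family to be followed across groups. PFKP made up 62.9% ± 3.55 of phosphofructokinase reads in SPANX KD 86 libraries, 51.9% ± 3.19 in SPANX KD 87 libraries and 48.6% ± 6.66 in EV libraries (SD, n = 3 each). PFKM made up 21.1% ± 1.76 in SPANX KD 86, 32.3% ± 1.84 in SPANX KD 87 and 30.9% ± 4.21 in EV libraries. For both isozymes the SPANX KD 86 libraries did not overlap the other groups. Of the summed PFKFB3 and PFKFB4 reads, PFKFB4 was 21.9%, 36.9% and 52.9% in SPANX KD 86 libraries, 79.7%, 81.9% and 86.1% in SPANX KD 87 libraries, and 59.7%, 53.3% and 68.1% in EV libraries, and these 3 groups did not overlap. ALDOC was 4.84% ± 1.05 of aldolase reads in SPANX KD 86, 2.62% ± 1.42 in SPANX KD 87 and 2.14% ± 0.576 in EV libraries. An exact two-sided permutation test of 3 libraries against 3 cannot go below p = 0.1, the value reached in 8 of 24 comparisons of shares, and the lowest Benjamini-Hochberg adjusted value was 0.3. None of the shares can therefore be called different. Capture of 3' ends may differ between genes, so the shares are read across groups and not between isozymes.

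**Figure D4:**
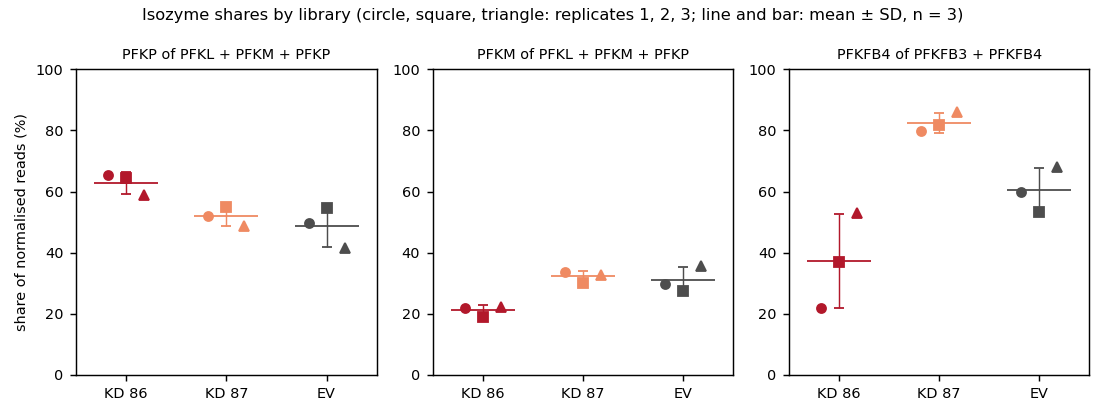
Share of normalised reads (y axis, percent) held by PFKP and PFKM among the 3 phosphofructokinase genes and by PFKFB4 among PFKFB3 and PFKFB4, in SPANX KD 86, SPANX KD 87 and EV libraries (x axis), with 1 marker per replicate and mean ± SD as line and bar. The PFKFB4 share is lowest in SPANX KD 86 (21.9% to 52.9%) and highest in SPANX KD 87 (79.7% to 86.1%).

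In some members of several roles the highest library had the same replicate number in every group. In 8 of the 37 members (ALDOC, PDK1, PFKFB4, CA9, ANKRD37, P4HA1, P4HA2 and MXI1), replicate 3 was the highest library of all 3 groups. That is 21.6% of the members, against 13.2% of all genes tested, and the count is not read as a trait of these genes. PDK1, for example, stood at 196.6, 162.5 and 307.2 normalised reads in replicates 1, 2 and 3 of SPANX KD 86, at 172.3, 184.1 and 394 in SPANX KD 87 and at 290, 233.8 and 352.5 in EV. ALDOC stood at 538.5, 541.1 and 826.6 in SPANX KD 86, at 343.6, 411.9 and 1001 in SPANX KD 87 and at 500, 423.8 and 527.1 in EV. Replicate 2 was highest in all groups for 5 members (13.5%, against 15% of all genes, the commonest of the 3 numbers over all genes) and replicate 1 for 1 member (2.7%, against 6.17%). No label names what the libraries of 1 replicate number share, and its part in these levels was not tested.

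**Figure D5:**
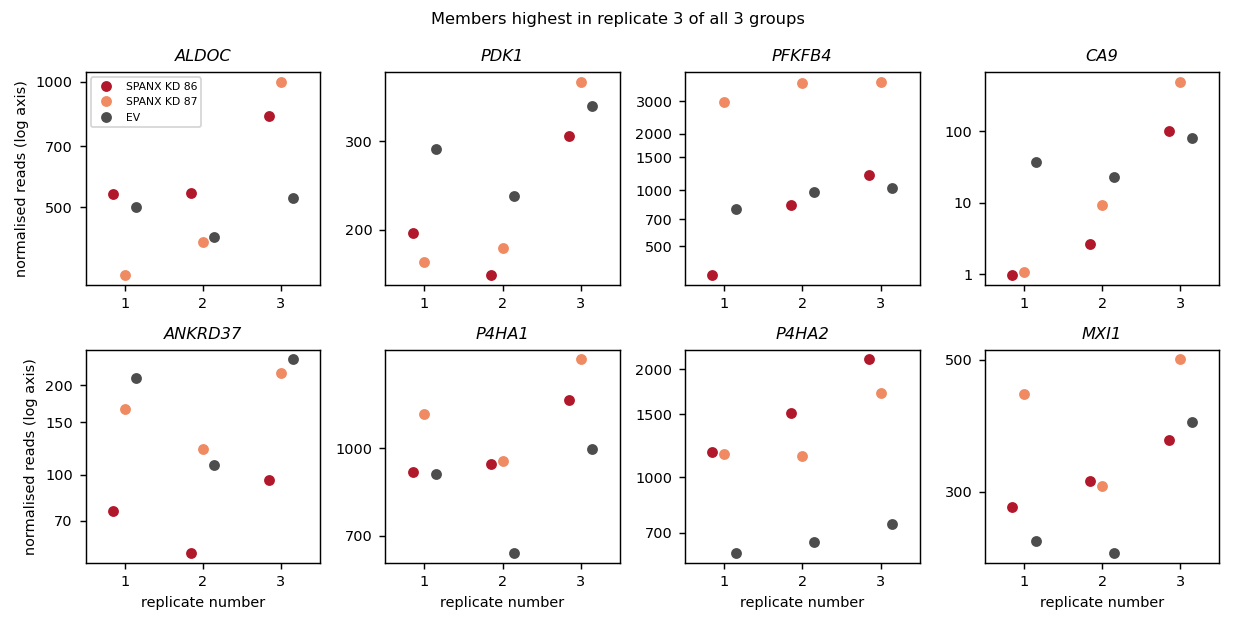
Normalised reads (y axis, log scale, 1 panel per gene) of the 8 members that were highest in replicate 3 of every group, by replicate number (x axis), with SPANX KD 86 in dark red, SPANX KD 87 in orange and EV in grey. CA9 spans the widest range, 0.9686 to 498.9 normalised reads, with the highest point of each colour at replicate 3.

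Transcript lengths of the called members were compared by direction. The same medians were not computed over all called genes, so a difference is not read as a trait of these members. The median transcript length was 2709 bases for the 9 members that were higher with construct 86 and 1782 bases for the 7 that were lower, against 2465 bases over all genes tested. With the length trend removed from each library, 8 of the 9 higher members and all 7 lower members were still called, the exception being HIF1A. The part of transcript length in the levels was not tested beyond this.

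Glucose enters and lactate leaves through transporters, of which 9 on a list of 10 were tested. With construct 86, 4 were higher and 3 lower (77.8% called, against 35.6% of all genes), and with construct 87 limma called 1 higher and 0 lower (11.1%, against 10.3% of all genes). At an unadjusted p under 0.05, and with the replicate block, 1 was higher and 1 lower with construct 87. SLC2A1 (GLUT1), the main glucose carrier of many tumours and a HIF target, averaged 1325 ± 198 normalised reads in SPANX KD 86, 3584 ± 651 in SPANX KD 87 and 3737 ± 1090 in EV libraries (SD, n = 3 each). It was lower with construct 86 (log2 fold change -1.47, adjusted p = 0.00133) and lower with construct 86 than with construct 87 (-1.43, adjusted p = 0.00194). SLC2A3 (GLUT3), a high-affinity glucose carrier, was higher with both constructs, at 1.18 with construct 86 (adjusted p = 0.00539) and 0.92 with construct 87 (adjusted p = 0.0447). The second of these calls was lost in 5 of 9 fits that left out a library (without EV replicate 1 or 3, SPANX KD 87 replicate 1 or 2, or SPANX KD 86 replicate 2), with adjusted p between 0.0709 and 0.181. SLC2A10 was higher with construct 86 (1.92, adjusted p = 0.00356) and SLC16A3 (MCT4), the lactate exporter of glycolytic cells, was lower (-1.24, adjusted p = 0.0119). SLC16A3 averaged 204.8 ± 98.7 in SPANX KD 86, 602.3 ± 16 in SPANX KD 87 and 447.4 ± 40.4 in EV libraries.

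Of 13 other tested isozymes and flux regulators, 4 were higher and 2 lower with construct 86 (46.2% called, against 35.6% of all genes), and 3 were higher and 1 lower with construct 87 (30.8%, against 10.3%). BPGM, which makes 2,3-bisphosphoglycerate, averaged 597.7 ± 176 normalised reads in SPANX KD 86, 218.9 ± 28.9 in SPANX KD 87 and 170.5 ± 14.4 in EV libraries (log2 fold change 1.76 with construct 86, adjusted p = 0.000579). ADPGK, an ADP-dependent glucokinase, averaged 2254 ± 417 in SPANX KD 86, 899.8 ± 146 in SPANX KD 87 and 821.9 ± 95.3 in EV libraries (1.44, adjusted p = 0.000676). LDHC, the testis lactate dehydrogenase, was lower with construct 86 (-2.06, adjusted p = 0.00244). These 3 calls were kept without each library in turn. PGM2L1 was higher with both constructs, at 1.44 with construct 86 (adjusted p = 0.00499) and 1.19 with construct 87 (adjusted p = 0.0335). Its call with construct 87 was lost without EV replicate 1 or 3, SPANX KD 86 replicate 2 or 3, or SPANX KD 87 replicate 1 or 2 (adjusted p between 0.0503 and 0.148). TXNIP, which restrains glucose uptake, was higher with both constructs, at 1.28 with construct 86 (adjusted p = 0.0481) and 1.95 with construct 87 (adjusted p = 0.023). Its call with construct 86 was kept without SPANX KD 87 replicate 1 or 2 and lost without any 1 of the other 7 libraries (adjusted p between 0.0531 and 0.111). Its call with construct 87 was lost without EV replicate 1 or SPANX KD 87 replicate 1 or 3 (adjusted p between 0.0522 and 0.0952). HKDC1, a hexokinase-like enzyme, was lower with construct 87 (-1.41, adjusted p = 0.0299), a call lost without EV replicate 1, SPANX KD 86 replicate 2, or SPANX KD 87 replicate 1 or 2 (adjusted p between 0.051 and 0.111). PGAM2, the muscle phosphoglycerate mutase, was higher with construct 87 (1.80, adjusted p = 0.0486) and kept its call without SPANX KD 86 replicate 1 or 3, and lost it without any 1 of the other 7 libraries (adjusted p between 0.0553 and 0.17). Between the constructs PGAM2 differed by -2.63 (adjusted p = 0.00412), kept without each library in turn.

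Among 10 tested genes that act on HIF or partner it, 1 was higher and 1 lower with each construct (20% called, against 35.6% of all genes with construct 86 and 10.3% with construct 87). With the replicate block 5 were higher and 1 lower with construct 86 (55.3% of all genes were called in that fit). With construct 87 the block gave 3 higher and 1 lower (31.0% of all genes). OS9, an endoplasmic reticulum lectin reported to bind HIF1A, was higher with construct 86 (log2 fold change 1.34, adjusted p = 0.000534). HSP90AB1, a chaperone that holds HIF1A among many clients, was lower with construct 86 (-1.15, adjusted p = 0.00351). With construct 87, ARNTL, a clock factor of the ARNT family, was higher (1.61, adjusted p = 0.0174) and lost without EV replicate 1 or SPANX KD 87 replicate 1 (adjusted p between 0.0605 and 0.0911). ARNT2, a paralog of ARNT, was lower with construct 87 (-1.08, adjusted p = 0.0394), a call kept without EV replicate 3 and lost without any 1 of the other 8 libraries (adjusted p between 0.0532 and 0.0951). ARNT2 differed between the constructs by 1.87 (adjusted p = 0.00134), kept without each library in turn.

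A wider list of hypoxia-responsive genes, 26 of 28 tested, held 10 higher and 6 lower with construct 86 (61.5% called, against 35.6% of all genes) and 5 higher and 2 lower with construct 87 (26.9%, against 10.3%). With the replicate block, which called 31.0% of all genes with construct 87, 12 of the list were higher and 3 lower. With construct 86 the calls fell to 6 higher and 2 lower without SPANX KD 86 replicate 2 (11.8% and 10.3% of all genes). They fell to 6 and 3 without EV replicate 1 (13.5% and 11.5%), and to 6 and 4 without SPANX KD 86 replicate 3 (15.3% and 14.5%). With construct 87 they fell to 3 higher and 0 lower without SPANX KD 87 replicate 1 (1.63% and 1.03% of all genes). They fell to 4 and 0 without EV replicate 1 (2.41% and 1.36%) or SPANX KD 87 replicate 2 (2.53% and 1.87%). In the full fit 18.0% of all genes were higher and 17.6% lower with construct 86, and 5.91% and 4.43% with construct 87. ANGPTL4, a secreted inhibitor of lipoprotein lipase, averaged 1181 ± 311 normalised reads in SPANX KD 86, 349.1 ± 173 in SPANX KD 87 and 52.71 ± 13.4 in EV libraries (SD, n = 3 each). Its log2 fold change was 4.45 with construct 86 (adjusted p = 4.9e-05) and 2.62 with construct 87 (adjusted p = 0.00272). ANGPTL4 also answers to signals other than HIF. PLOD2, a collagen lysyl hydroxylase, averaged 3259 ± 98 in SPANX KD 86, 1416 ± 317 in SPANX KD 87 and 1367 ± 88 in EV libraries, and was called with construct 86 (1.25, adjusted p = 0.00086). FUT11, a fucosyltransferase, was called with construct 86 (1.08, adjusted p = 0.00135). RORA, a nuclear receptor, and KDM5B, a histone H3 lysine 4 demethylase, were higher with both constructs. RORA was at 1.44 with construct 86 and 1.93 with construct 87 (adjusted p = 0.00315 and 0.00364), and KDM5B at 1.20 with construct 86 and 1.26 with construct 87 (adjusted p = 0.00312 and 0.00926). Of these calls, 1 depended on a single library, that of KDM5B with construct 87, which was lost without SPANX KD 87 replicate 1 (adjusted p = 0.0522).

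Reads of near-identical copies limit some members. Of pseudogenes listed under their parents' names, 2 of TPI1, 4 of GAPDH, and 1 each of PKM, LDHA and BNIP3 had values above 0, with mean levels of at most 88.27 normalised reads, small beside their parents' levels. Antisense genes of ENO1, HIF1A, EGLN3 and P4HA2 were listed at 0 in every library, and the sources used here do not say whether strand was used in counting, so reads of a gene and its antisense partner cannot be told apart.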

How the data were processed

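RNA of A375 cells was sequenced as QuantSeq 3' mRNA-Seq libraries, 3 per group. The deposited value per gene is a score: per the submitters' processing notes reads were handled with STAR, featureCounts, Subread and edgeR (versions not given) on hg19, and the authors' values are reads scaled per library and rounded to whole numbers. In each library at least 99.83% of the values were whole multiples of 1 constant within rounding, so reads were recovered with it and the libraries were rescaled together by the TMM formula (30% of log ratios and 5% of abundances trimmed). Because rounded scores are not counts, limma 3.58.1 in R 4.3.3 was run on log2(level + 1) over 13825 genes with a variance trend, 1 coefficient per group and 6 residual degrees of freedom. Genes listed at 0 in all libraries (45742 of 60420) or in a whole group were not tested. The test was tried on simulated data. Shares were summarised in Python 3.11.15.

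Over 13819 genes, deviations from the group means correlated with r of 0.215 to 0.722 in the 9 pairs of libraries that share a replicate number, and of -0.644 to 0.14 in the other 18, so the numbers pair the samples. This pairing comes from the data, as no label names what a number shares. Transcript lengths came from GENCODE v29 (99.6% of tested genes), and a smooth trend on log length (spline, 4 degrees of freedom) was removed as an alternative. Other alternatives were the scaling, the pseudocount, the low-value filter, the variance trend, the replicate block and leaving out each library. The members, the companion lists (up to 4 genes per list and comparison named, those with the smallest adjusted p that passed, of which some are not reported here) and the alternatives were chosen with earlier results of these data known. Promoters came from RefSeq (GRCh38.p14). Depth per library was 14413610, 15564093 and 11310656 reads for SPANX KD 86, 12670583, 15267935 and 12744791 for SPANX KD 87, and 12872035, 14554119 and 12321378 for EV.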

Additional observations from a re-analysis of the deposited data

Results flagged for a closer look

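In 12 members (32.4%, against 25.6% of all genes) the direct limma comparison called a difference between the knockdown libraries of the 2 constructs. The calls of PFKM, PFKFB4, EPAS1, EGLN3 and CA12 were kept without each library in turn. The others were lost without certain single libraries, and those of EGLN1 and GAPDH also with the length trend removed. The values below are log2 differences, construct 86 minus construct 87. In the glycolytic chain, GPI was at -0.74, PFKM at -0.75, ALDOA at -0.77 and GAPDH at -0.89. Of the flux regulators, PFKFB3 was at 0.77 and PFKFB4 at -2.30. Of the HIF subunits and oxygen sensors, EPAS1 was at 1.76, ARNT at -0.76, EGLN1 at 0.53 and EGLN3 at 1.83. Of the hypoxia targets, CA12 was at 2.46 and ANKRD37 at -1.16. Against EV, PFKFB4 was at -0.39 with construct 86 and 1.90 with construct 87, and CA12 was at 2.08 with construct 86 and -0.39 with construct 87.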

How the results depend on the processing

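No member's called fold change changed sign under the 10 other settings or the 9 fits that each left out a library. Of the member values under these settings, 1989 kept their side of the threshold, 81 lost the call and 39 gained one. The number of genes called with construct 86 was 4925, and 7647 with the replicate block and 7632 with block and length trend removed. Genes called with construct 87 were 1429, and 4283 with the block, 4813 with block and length trend removed, and 2626 when every gene above 0 in any library was tested. Genes called between constructs were 3533, and 6094 and 6610 in the same 2 blocked fits. Members called with construct 87 were 4, and 8 with the block and 11 (9 higher and 2 lower) with block and length trend removed. Leaving out single libraries gave 3056 to 6014 genes called with construct 86, 369 to 2554 with construct 87 and 2207 to 4191 between constructs. The same fits called 9 to 16 members with construct 86, 1 to 6 with construct 87 and 5 to 14 between constructs. Between constructs, the call of EGLN1 was also lost with scaling by totals (adjusted p = 0.0659), without the variance trend (0.0573) and with block and length trend removed (0.0779), that of PFKFB3 with scaling by totals (0.053) and without the variance trend (0.0526), and that of ARNT without the variance trend (0.0608). Other scalings moved the median of all genes by at most 0.054 on the log2 scale. With 3 libraries per group and 11310656 to 15564093 reads in each, a missed threshold does not show that a gene did not differ. Standard errors were wide for CA9 (1.85), whose libraries varied widely within each knockdown group, and for EGLN3 (0.43). Over all libraries CA9 had 726 reads, EGLN3 392 and CA12, with a standard error of 0.34, 389. The source of the spread was not tested.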

Other observations

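Most pentose phosphate enzymes and a part of the pyruvate dehydrogenase genes were lower with construct 86. Of 7 pentose phosphate enzymes, which make NADPH and ribose, 6 were lower and 0 higher with construct 86 (17.6% of all genes were lower), and limma called 0 with construct 87 (0 higher and 1 lower at an unadjusted p under 0.05 and with the replicate block). RPIA averaged 258.1 ± 61.7 normalised reads in SPANX KD 86, 579.9 ± 54.7 in SPANX KD 87 and 744.2 ± 233 in EV libraries (SD, n = 3 each), a log2 fold change of -1.51 with construct 86 (limma adjusted p = 0.00146). RPE was at -1.01 (adjusted p = 0.00708) and TALDO1 at -0.88 (adjusted p = 0.0142). Of these, TALDO1 lost its call without SPANX KD 86 replicate 2 (adjusted p = 0.06). Of 12 genes of pyruvate dehydrogenase, its kinases and phosphatases and the mitochondrial pyruvate carrier, 6 were lower and 0 higher with construct 86 (the other 6 did not pass) and limma called 0 with construct 87 (3 lower at an unadjusted p under 0.05, and 5 lower with the replicate block). MPC1, a subunit of the pyruvate carrier, averaged 105.1 ± 33.3 in SPANX KD 86, 234.2 ± 66.4 in SPANX KD 87 and 442.9 ± 224 in EV libraries (-1.95 with construct 86, adjusted p = 0.0072). PDHA1, the catalytic subunit, was at -0.86 with construct 86 (adjusted p = 0.00877), and the phosphatases PDP2 and PDP1 were at -0.76 (adjusted p = 0.00452) and -0.82 (adjusted p = 0.011), PDP1 losing its call without SPANX KD 86 replicate 2 (adjusted p = 0.0554). PDP1 differed between the constructs by -1.06 (adjusted p = 0.00403). Without SPANX KD 86 replicate 2, 3 of the 7 pentose phosphate enzymes and 3 of the 12 pyruvate dehydrogenase genes were called lower, against 10.3% of all genes in that fit. With all libraries, 10.3% of all genes were called in either direction with construct 87, and 31.0% with the replicate block.

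Genes of gluconeogenesis and glycogen divided. Of 7 tested, 3 were higher and 3 lower with construct 86, and limma called 0 with construct 87 (2 higher at an unadjusted p under 0.05 and with the replicate block). PYGB, the brain-type glycogen phosphorylase, averaged 29080 ± 2667 normalised reads in SPANX KD 86, 16621 ± 4403 in SPANX KD 87 and 10617 ± 2782 in EV libraries (SD, n = 3 each), a log2 fold change of 1.48 with construct 86 (limma adjusted p = 0.00215). UGP2, which makes UDP-glucose, was at 1.31 (adjusted p = 0.00256) and PC, pyruvate carboxylase, at 1.28 (adjusted p = 0.0021). PCK2, the mitochondrial PEP carboxykinase, averaged 142.4 ± 12.3 in SPANX KD 86, 327.4 ± 34.4 in SPANX KD 87 and 402 ± 101 in EV libraries (-1.47 with construct 86, adjusted p = 0.000849). Over all genes tested 35.6% were called with construct 86 and 10.3% with construct 87, or 31.0% with construct 87 and the replicate block.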
